A study of Mus musculus with 6 samples.

Results

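MHC class I antigen presentation was examined through 10 genes: the classical heavy chains H2-K1 and H2-D1, the light chain B2m, the peptide transporter subunits Tap1 and Tap2, the loading protein Tapbp, the immunoproteasome subunits Psmb8, Psmb9 and Psmb10, and the transactivator Nlrc5. They were chosen by symbol for their roles in the pathway, and 10 of 10 were found among the 16894 genes of the table. The cells were fibroadipogenic progenitors (FAPs), mesenchymal cells of skeletal muscle, sorted as CD45-/CD31-/α7-integrin-/SCA-1+ cells from hindlimb muscles of male and female C57BL/6 mice 3 to 6 months old. Control FAPs (3 libraries) were compared with senescent FAPs (3 libraries). The senescent cells had received 20 μM of etoposide, a topoisomerase II inhibitor that breaks DNA, for 48 h and then normal medium for 5 days. Both groups had been grown at low oxygen in medium with serum and bFGF, and whether the controls received vehicle is not stated. RNA was measured by stranded mRNA sequencing of whole cultures. Fewer cells of a type and less RNA per cell cannot be told apart in such samples. The labels do not say whether the libraries of a group came from separate mice or cultures, so the p-values measure the spread between these libraries only.

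Class I molecules carry short peptides of the cell's own proteins to the surface for inspection by CD8+ T cells. Proteasomes cut proteins in the cytosol, and the TAP1/TAP2 transporter moves the peptides into the endoplasmic reticulum. There tapasin and chaperones load them onto a heavy chain paired with β2-microglobulin. Interferons are known inducers of this set of genes, and 3 of them encode catalytic subunits that replace the constitutive ones in the immunoproteasome. Antigen presentation can make senescent cells visible to T cells, and natural killer cells read the absence of class I.

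The libraries held 41412179 to 59912520 reads on named genes. Values are CPM (read counts scaled to the effective library size of each library), and 1 read was worth 0.0167 to 0.0225 CPM. The growth arrest gene Cdkn1a rose from 259 to 336 CPM in control FAPs to 1017 to 1060.2 CPM in senescent FAPs, and the proliferation gene Mki67 fell from 101 to 247 CPM to 9.27 to 19.0 CPM. They belong to a check of 4 genes that also held Cdkn2a (p16) and Top2a, of which 1 was called higher and 2 lower. The 1 called higher was Cdkn1a, so Cdkn2a was not called higher in these libraries. The paper reported increased p16 by qPCR in etoposide-treated FAPs. All 8 FAP markers had values, and their sum was 16996 to 36084 CPM in control and 10000.3 to 14867 CPM in senescent FAPs, with 3 of the 8 higher and 1 lower. The one that fell was Col1a1, a collagen gene that went from 9978 to 21129.7 CPM in control to 2353 to 4073 CPM in senescent FAPs. Of 16 leukocyte markers, 10 had values, and their sum was 14.8 to 17.8 CPM in control and 31.0 to 38.0 CPM in senescent FAPs. Ptprc (CD45), Cd52, Tyrobp, Adgre1 and Cd3e are among those that have no row in the table used here. Among the 7 leukocyte markers tested, 4 rose, with Cd53 at the highest level in senescent FAPs (8.36 to 13.7 CPM). The endothelial markers summed to 18.0 to 38.4 CPM in control and 22.2 to 29.2 CPM in senescent FAPs. Of 7 myogenic markers 2 had values (Itga7 and Des), which summed to 14.3 to 19.3 CPM in control and 23.4 to 30.2 CPM in senescent FAPs, and Itga7 rose. Pax7, Myf5, Myod1, Myog and Cdh15 have no row either. The part of these marker changes in the results below was not tested. Control replicate 2 held the highest Mki67 of the 6 libraries and the lowest value of its group for 7 of the 10 class I genes.

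Of the 10 genes, 9 rose in senescent FAPs and 0 fell. Among all 14776 genes tested, 21.8% rose and 24.3% fell (limma, Benjamini-Hochberg adjusted p under 0.05). The same 9 genes had all 3 senescent libraries above all 3 control libraries, which held for 26.5% of all genes, and the opposite order held for 30.9%. The log2 fold changes of the 10 genes ran from 0.17 to 2.10 with a median of 1.08, beside a median of -0.03 over all genes tested. Nlrc5 and Tap1 changed most and H2-K1, the remaining gene, was not called. The deposited scaling lowers senescent values. When values were divided by library totals instead, the median of all genes moved up by 0.20 and the number of class I genes called stayed at 9.

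**Figure D1:**
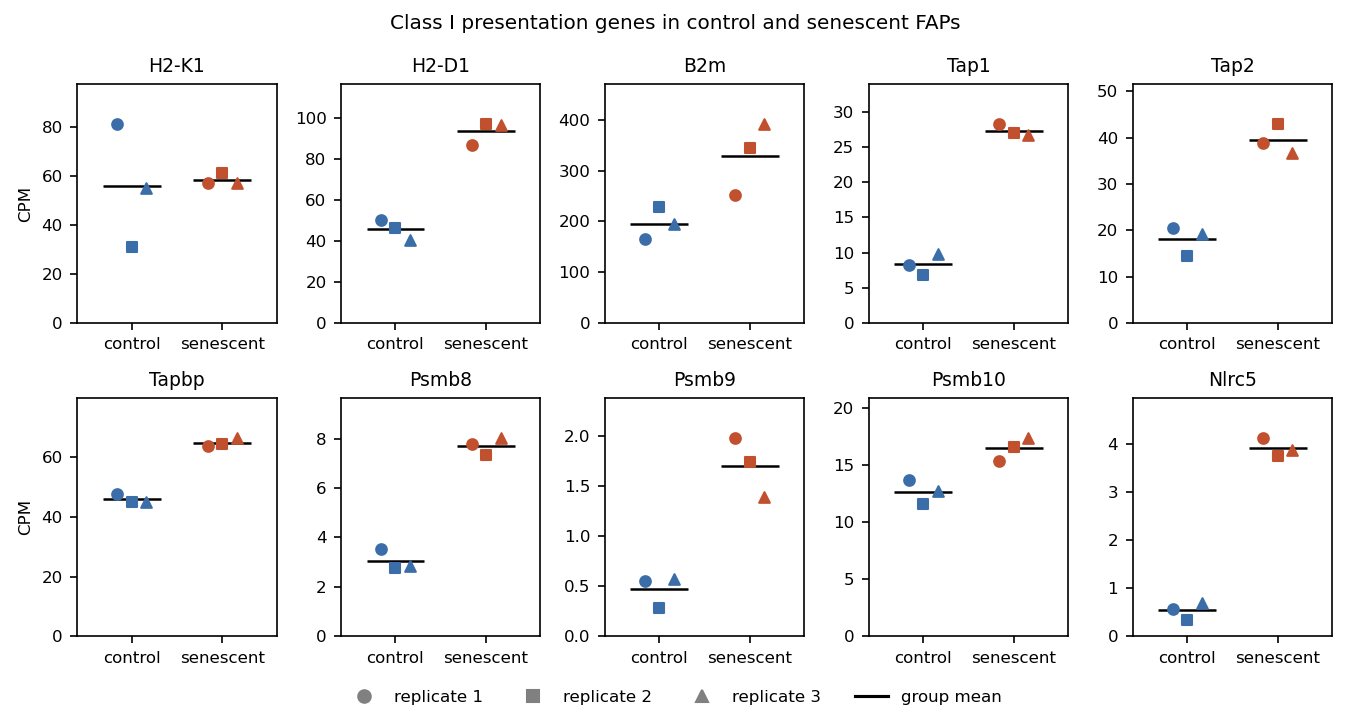
CPM of the 10 class I presentation genes in the 3 control and the 3 senescent libraries, with 1 point a library, marker shapes for replicate numbers and a bar at each group mean. For 9 genes every senescent point lies above every control point, while the control points of H2-K1 lie on both sides of the senescent ones.

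Nlrc5, a NOD-like receptor protein that enters the nucleus and activates class I promoters, had the largest fold change of the 10. It measured 0.580, 0.342 and 0.700 CPM in control replicates 1, 2 and 3, which were 26, 18 and 39 reads. In senescent replicates 1, 2 and 3 it measured 4.13, 3.75 and 3.87 CPM, or 208, 224 and 172 reads. The senescent libraries were thus close to each other and far above the highest control. The mean rose from 0.541 ± 0.182 to 3.92 ± 0.195 CPM (SD, n = 3 each), a 7.24-fold difference. On the log2(CPM + 0.5) scale the change was 2.10 (SE 0.17, 95% interval 1.69 to 2.51, limma adjusted p = 0.000243). The added 0.5 CPM compresses low genes, and edgeR on the recovered reads gave 2.88. The gene spans chr8:94434356-94527272 on the + strand of GRCm38.

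Other proteins known to act on class I promoters or in the interferon response were described from a list of 17, of which 15 could be tested. Of these, 3 rose and 1 fell, beside 21.8% and 24.3% of all genes tested. Their median log2 fold change was 0.01, and 6 rose and 1 fell after division by library totals. Without control replicate 2 or senescent replicate 3, 2 fell. Stat2, a transcription factor of the type I interferon response, measured 15.6, 11.0 and 16.4 CPM in control and 38.4, 37.8 and 33.5 CPM in senescent libraries. The groups were far apart, with a log2 change of 1.34 (SE 0.16, limma adjusted p = 0.00066). Irf9, a DNA-binding partner of STAT2 named after its value was seen, rose by 1.22. Nfyc, a subunit of the CCAAT-binding factor NF-Y, fell by 0.70, while Nfya (-0.07) and Nfyb (-0.00) were not called. Rfx5 (0.07), Rfxank (-0.13) and Rfxap (-0.41), the parts of the RFX complex with which NLRC5 works, were not called either, nor was Irf1 (0.35, limma adjusted p = 0.111). Nfya, Nfyb, the RFX genes and Irf1 were likewise named after their values were seen. Of 7 interferon genes looked for, 0 have a row in the table used here.

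The class I heavy chain binds the peptide and the T cell receptor. The H2-K1 and H2-D1 genes lie apart in the mouse MHC on chromosome 17, at chr17:33996017-34000347 (- strand) and chr17:35262730-35267499 (+ strand) of GRCm38. H2-D1 measured 50.3, 46.2 and 40.7 CPM in control replicates 1, 2 and 3 and 87.1, 97.1 and 97.0 CPM in senescent replicates 1, 2 and 3. All senescent libraries were far above the controls, and the mean was 2.05-fold higher (log2 change 1.03, SE 0.10, 95% interval 0.81 to 1.26, limma adjusted p = 0.000331).

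H2-K1 measured 81.1, 31.2 and 55.3 CPM in the controls and 57.3, 61.1 and 57.0 CPM in the senescent libraries. The controls spread widely (SD 24.99 CPM around 55.9) and enclosed the senescent values (SD 2.28 CPM around 58.5). The log2 change was 0.17 (SE 0.29, 95% interval -0.51 to 0.85, limma adjusted p = 0.664), an interval that still holds a rise of the size of B2m or a fall. Within replicate numbers it was -0.50, 0.96 and 0.05, and it turned to -0.19 (limma adjusted p = 0.307) without control replicate 2 (range of adjusted p over all alternatives 0.111 to 0.819). Heavy chain genes share stretches of sequence and can exchange reads there, since 8.79% of the 50-base words of the H2-K1 transcript and 14.3% of those of the H2-D1 transcript occur in other genes (0% and 4.64% at 100 bases).

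The ratio of H2-K1 to H2-D1 within a library does not depend on scaling between libraries. It was 161%, 67.4% and 136% in control and 65.9%, 62.9% and 58.8% in senescent replicates 1, 2 and 3. Every senescent ratio was below every control ratio, although control replicate 2 was only just above. The difference was -0.87 on the log2 scale, with a two-sided exact permutation p = 0.1, the smallest that 3 against 3 libraries can give (0.125 adjusted over 5 ratios). The summed CPM of both genes was 131, 77.4 and 95.9 in control and 144, 158 and 154 in senescent replicates.

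B2m encodes β2-microglobulin, the light chain shared by all class I heavy chains. It measured 165, 227 and 195 CPM in control and 252, 345 and 391 CPM in senescent replicates 1, 2 and 3. The groups did not overlap, but senescent replicate 1 was near the highest control. The log2 change was 0.74 (SE 0.18, 95% interval 0.32 to 1.15, limma adjusted p = 0.0123). Without senescent replicate 2 or 3 the change was 0.69 or 0.60 and was no longer called (limma adjusted p = 0.0541 and 0.0511, in a range of 0.000156 to 0.0541 over all alternatives). The ratio of the 2 classical heavy chains to B2m went from 79.6%, 34.0% and 49.3% to 57.3%, 45.9% and 39.4%, with overlapping groups (log2 difference -0.12, exact permutation p = 0.8).

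The promoters of these chains are shown because the 2 heavy chain genes carry nearly the same elements, and because B2m holds the same spaced pair. The 300-base windows of RefSeq (GRCm38.p6, 250 bases before and 50 after each start) were searched on both strands for 5 motifs. In the stretches below, each 5′ to 3′ on the strand of the gene, capitals mark motif matches. The first pair shows matches to the NF-κB-like motif GGGNNTTNC, from chr17:34000440-34000468 (- strand) and chr17:35262913-35262941 (+ strand).
H2-K1: gcccagggctGGGGATTCCccatctccac
H2-D1: gcccagggctGGGGATTCCccatctcctc
The stretches were identical at 28 of 29 bases. Next come matches to TGACG, the core of the X2 box that CREB and ATF1 bind, followed by ATTGG, the Y box CCAAT read on the other strand. They lie at chr17:34000359-34000388 (- strand), chr17:35262993-35263022 (+ strand) and chr2:122147609-122147638 (+ strand).
H2-K1: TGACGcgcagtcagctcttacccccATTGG
H2-D1: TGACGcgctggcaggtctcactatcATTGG
B2m: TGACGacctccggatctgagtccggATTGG
In all 3 the first bases of the motifs were 25 apart, a spacing looked for after it was seen and found in 31 of 32817 windows (0.0945%). H2-K1 and H2-D1 matched at 23 of these 30 bases. From the NF-κB-like motif to the Y box they matched at 89 of 100. The 31 windows belong to 27 genes, and of the 22 tested 6 rose and 8 fell, beside 21.8% and 24.3% of all genes tested. H2-D1 and B2m, whose windows gave the spacing, are among those that rose. B2m alone of the 8 genes with a window also matched GAAANNGAA, the pattern used here for the core of the interferon-stimulated response element. This match lies just upstream of a reverse NF-κB-like match, at chr2:122147542-122147576.
B2m: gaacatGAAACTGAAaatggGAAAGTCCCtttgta
The windows of all genes held GAAANNGAA in 8.55%, GGGNNTTNC in 15.2%, TGACG in 20.8% and CCAAT in 37.4%. TGACG was in the windows of H2-K1, H2-D1, B2m, Tap1 and Psmb9, and CCAAT in these and in Tapbp. The gamma-activated site TTCNNNGAA, held by 8.29% of windows, was in that of Psmb8. Matches of different motifs did not overlap in the windows of the 8 genes. A match says that the letters are present and nothing about binding. Each motif was searched as a fixed pattern, so a window without a match may still hold an element of that kind in other letters. Tap2 and Nlrc5 are named only.

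Of 22 other heavy chain genes of the MHC, 13 have a row and 6 passed the filter on low values. Of these, 4 rose and 0 fell, beside 21.8% and 24.3% of all genes tested, with a median log2 fold change of 0.63. H2-T23, which encodes Qa-1, a ligand of natural killer cell receptors, measured 22.5, 16.3 and 19.5 CPM in control and 47.2, 49.9 and 56.8 CPM in senescent libraries (log2 change 1.39, SE 0.13, limma adjusted p = 0.000345). H2-T22, a ligand of γδ T cells, rose by 0.67 and H2-Q4 by 0.88. H2-T10, named after its value was seen, rose by 0.60 (limma adjusted p = 0.0470). It lost its call with the replicate number as a block (limma adjusted p = 0.0569), with a pseudocount of 0.1 or with quantile normalization. The call also ended without control replicate 1 or 3 or senescent replicate 1 or 3. H2-M3, named in the same way, gained a call with the block (log2 change 0.45, limma adjusted p = 0.0530 without and 0.0324 with the block). It was also called without control replicate 1, under library totals, median-of-ratios factors or quantile normalization, with array weights and with DESeq2. The 13 genes summed to 73.5 to 82.3 CPM in control and 135 to 154 CPM in senescent libraries. Reads of this family cannot be split with certainty among its members. Of the 8 class I-like genes outside the MHC that were tested, 2 rose and 1 fell, beside the same shares of all genes (4 rose without control replicate 2). They were Procr (1.49), the endothelial protein C receptor, Mr1 (0.96), which presents vitamin B metabolites, and Ulbp1 (-0.73), a ligand of the receptor NKG2D. The fall of Ulbp1 was no longer called after division by library totals or without senescent replicate 2 or 3. Other NKG2D ligands of the list, named after their values were seen, did not fall. Raet1d (0.61) and Raet1e (0.21) were not called, with overlapping groups, and were called higher without control replicate 2. H60b was too low to be tested, at a mean of 0.204 CPM in control and 0.739 CPM in senescent libraries, with overlapping groups.

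TAP1 and TAP2 form the transporter that pumps peptides into the endoplasmic reticulum. Tap1 measured 8.28, 6.86 and 9.80 CPM in control and 28.2, 26.9 and 26.6 CPM in senescent replicates 1, 2 and 3. The lowest senescent value was well above the highest control, and the log2 change was 1.67 (SE 0.14, 95% interval 1.35 to 1.98, limma adjusted p = 0.000232). Tap2 measured 20.4, 14.5 and 19.1 CPM in control and 38.9, 42.9 and 36.7 CPM in senescent libraries. Its groups were apart as well, with a smaller log2 change of 1.12 (SE 0.14, 95% interval 0.80 to 1.44, limma adjusted p = 0.000793). The difference between the 2 subunits was not tested.

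Tap1 is shown as the neighbour of Psmb9, since both have their RefSeq starts in one short stretch of chromosome 17, with 225 bases between them and on opposite strands. The TGACG match from chr17:34187458-34187487, on the strand of Tap1, lies in the window of each gene, as does a CCAAT match.
Tap1: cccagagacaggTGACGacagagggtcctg
The genes as annotated in GENCODE M21 overlap by 212 bases (Tap1 at chr17:34187553-34197225, + strand, and Psmb9 at chr17:34181987-34187764, - strand). The RefSeq starts above leave no such overlap. The annotation and the use of strand by the counting tool are not given in the sources used here, so reads in the GENCODE overlap may have been assigned to either gene. Of the 10 genes, 7 lie on chromosome 17.

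Tapbp encodes tapasin, which bridges the transporter and the empty class I molecule. It measured 47.8, 45.1 and 44.8 CPM in control and 63.7, 64.5 and 66.5 CPM in senescent libraries. Both groups were tight and apart, and the log2 change was 0.50 (SE 0.07, 95% interval 0.34 to 0.65, limma adjusted p = 0.00125). The tapasin relative Tapbpl, a peptide editor, rose by 0.69 and the cytosolic aminopeptidase Npepps by 0.31. Both were named after their values were seen.

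The further genes of peptide trimming, loading and editing went mostly down. Of 14 tested, 2 rose and 8 fell, beside 21.8% and 24.3% of all genes tested. Their median log2 fold change was -0.46, and 3 rose and 6 fell after division by library totals. The 3 with the smallest p were Sec61a1 (-1.04), the channel of the endoplasmic reticulum, Hspa5, its main chaperone BiP (2169 to 2370 CPM in control and 1110 to 1192 CPM in senescent libraries), and Thop1 (-0.87), a cytosolic peptidase that destroys peptides. Of the members of the loading complex, named after their values were seen, calreticulin (Calr) measured 1981, 2189 and 2082 CPM in control and 1246, 1082 and 1181 CPM in senescent libraries, a fall with no overlap (log2 change -0.83, SE 0.11, limma adjusted p = 0.00106). Pdia3, which encodes ERp57, fell by 0.45 and the trimming peptidase Erap1 by 0.46, and both calls ended after division by library totals. Canx (calnexin) was at -0.24 and not called. Many of these proteins also serve the folding of other secreted proteins.

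Psmb8, Psmb9 and Psmb10 encode the catalytic subunits β5i, β1i and β2i, which take the places of Psmb5, Psmb6 and Psmb7. Psmb8 measured 3.55, 2.76 and 2.85 CPM in control and 7.76, 7.33 and 8.03 CPM in senescent replicates 1, 2 and 3. The groups were far apart, with a 2.52-fold higher mean and a log2 change of 1.21 (SE 0.14, 95% interval 0.89 to 1.54, limma adjusted p = 0.00066). Psmb9 measured 0.558, 0.285 and 0.574 CPM (25, 15 and 32 reads) in control and 1.99, 1.74 and 1.40 CPM (100, 104 and 62 reads) in senescent libraries.

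Psmb9 was thus higher in every senescent library, at counts low enough that the pseudocount matters. The log2 change was 1.19 (SE 0.19, 95% interval 0.74 to 1.63, limma adjusted p = 0.00237), and edgeR on the recovered reads gave 1.88. Psmb10 measured 13.6, 11.6 and 12.7 CPM in control and 15.4, 16.6 and 17.4 CPM in senescent libraries. Its change was the smallest of the 9 called, at 0.37 (SE 0.11, 95% interval 0.11 to 0.62, limma adjusted p = 0.0270), and it was not called without control replicate 3 (limma adjusted p = 0.0711), senescent replicate 2 (0.0922) or senescent replicate 3 (0.0917), in a range of 0.00225 to 0.0922 over all alternatives.

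**Figure D2:**
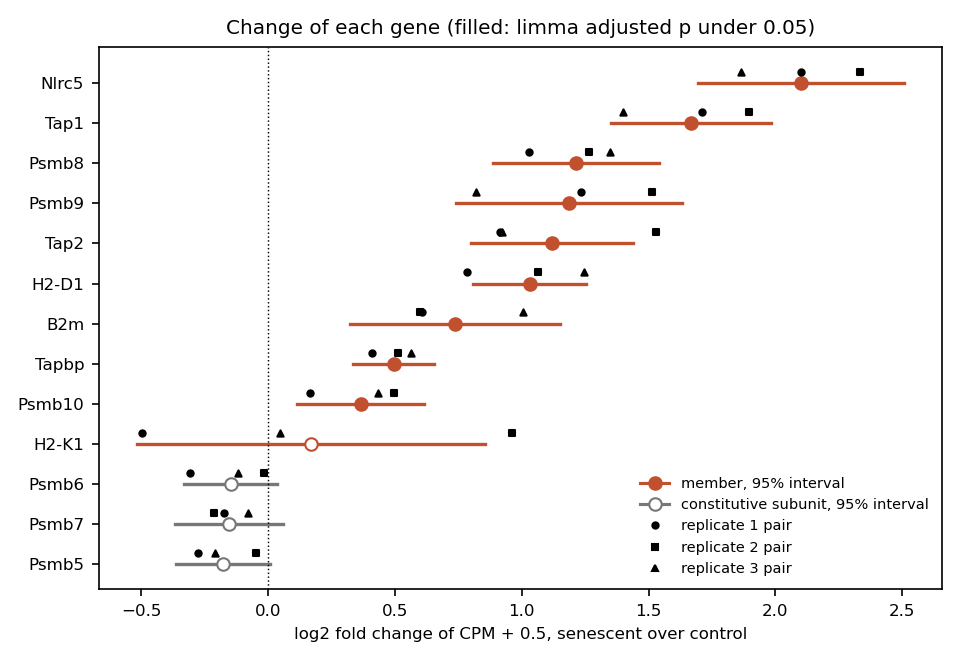
Log2 fold change (senescent over control, log2 of CPM + 0.5) of the 10 class I genes and the 3 constitutive catalytic subunits, with 95% limma intervals as lines and the difference within each replicate number as small black markers. Filled circles mark adjusted p under 0.05. The 9 called genes lie right of 0 in every replicate number, H2-K1 on both sides of it, and the constitutive subunits slightly left of it, a side that turned after division by library totals.

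The constitutive counterparts were not called in either direction. Psmb5 (-0.18), Psmb6 (-0.15) and Psmb7 (-0.15) had limma adjusted p = 0.102, 0.165 and 0.205, and the sign of each turned after division by library totals. Within a library the ratios are free of this scaling. Psmb8 was at 3.74%, 3.28% and 3.36% of the CPM of Psmb5 in control and at 9.90%, 9.01% and 10.9% in senescent libraries. This is a 2.87-fold change with no overlap (log2 difference 1.52, exact permutation p = 0.1, the smallest possible).

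Psmb9 was at 0.412%, 0.248% and 0.465% of Psmb6 in control and at 1.82%, 1.53% and 1.22% in senescent libraries (4.15-fold, log2 difference 2.05, or 1.33 with 0.5 CPM added to each gene). Psmb10 was at 12.8%, 9.45% and 10.8% of Psmb7 in control and at 16.3%, 15.6% and 15.6% in senescent libraries (1.45-fold, log2 difference 0.53). Both differences also had an exact permutation p = 0.1 (0.125 adjusted over 5 ratios) and no overlap. These percentages are ratios of CPM and not of protein or of CPM per length, so only their change between groups is read.

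**Figure D3:**
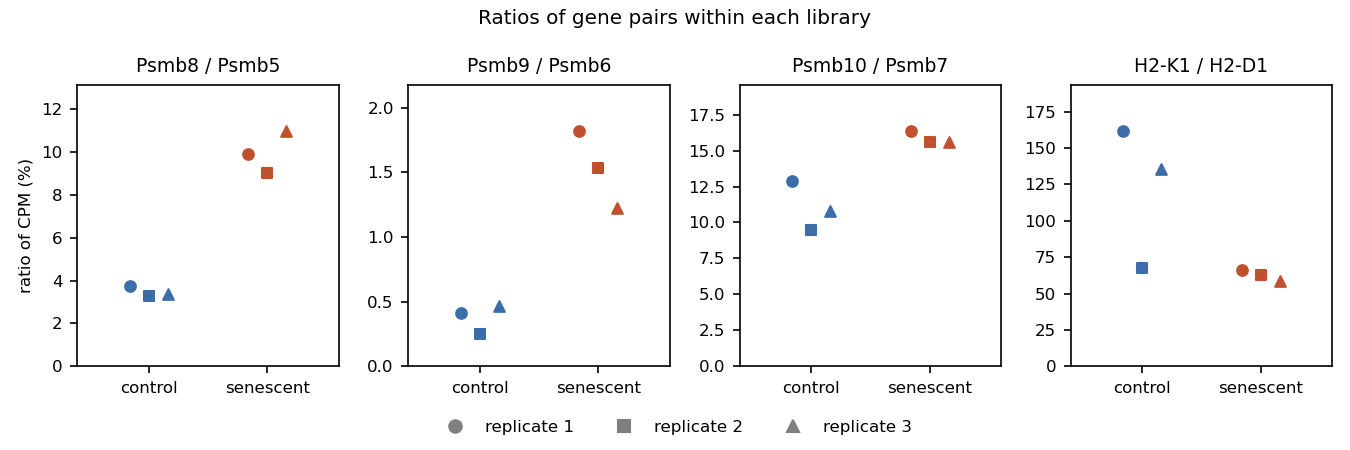
Ratio of the CPM of 2 genes within each library, in percent, for each immunoproteasome subunit over its constitutive counterpart and for H2-K1 over H2-D1, with 1 point a library. The immunoproteasome ratios of the 3 senescent libraries lie above those of the 3 controls, and those of H2-K1 over H2-D1 lie below, control replicate 2 being at 67.4%.

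Other proteasome genes were described in the same way. Among 12 other subunits of the 20S core tested, 1 rose and 5 fell, beside 21.8% and 24.3% of all genes tested. Their median log2 fold change was -0.18. The 3 with the smallest p were Psma7 (-0.41), Psma5 (-0.32) and Psmb4 (-0.28). After division by library totals 2 of the 12 rose and 0 fell. With median-of-ratios factors 1 rose and 3 fell, and with quantile normalization 0 rose and 3 fell. The falls thus depended on the choice among these scalings, and only library totals removed all of them. They also depended on the fit, with 3 that fell under no variance trend, edgeR or DESeq2 and 7 with array weights. At a filter of 2 CPM 0 rose and 5 fell. The count that fell was 2 or 3 without control replicate 2 or 3 or without any 1 of the senescent replicates, and the count that rose was 0 without control replicate 1 or senescent replicate 2 or 3. Of 9 activator and assembly genes, 0 rose and 4 fell, namely Psme3 (-0.45), a nuclear activator, and the assembly chaperones Psmg1 (-0.58), Psmg4 (-0.99) and Psmg3 (-0.53, named after its value was seen). Psmg2 (-0.36, limma adjusted p = 0.1002) was called with the replicate number as a block (0.0232). After division by library totals 3 of the 9 rose and 4 fell. Psme1 (0.16) and Psme2 (0.09), the subunits of the interferon-inducible activator PA28, were not called. They were named after their values were seen.

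**Figure D4:**
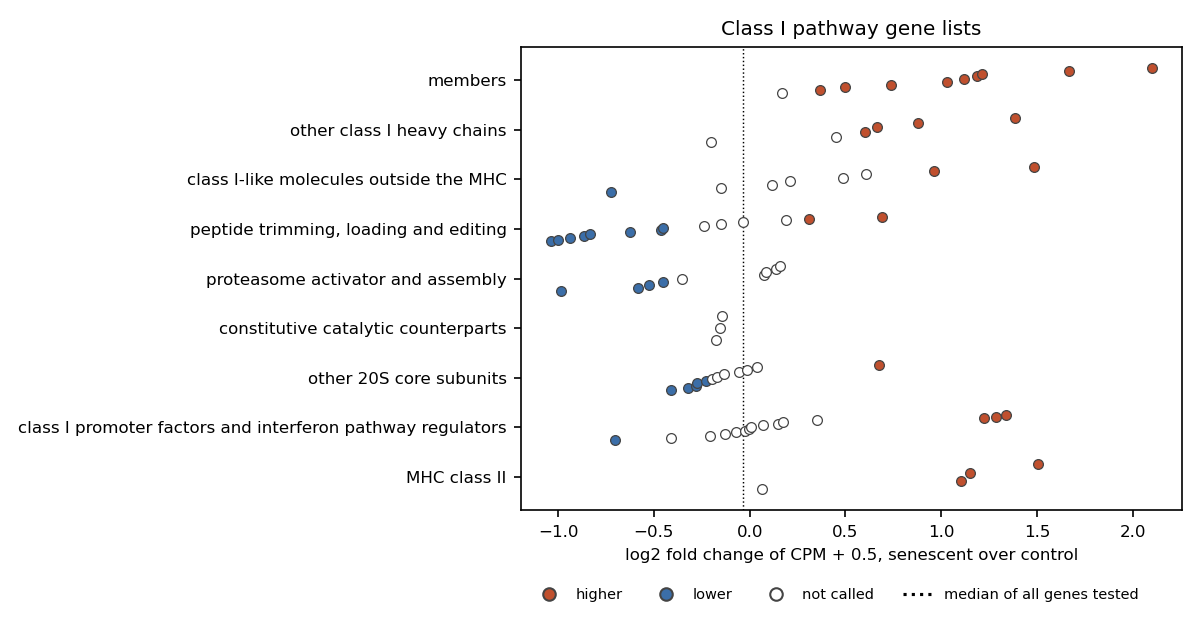
Log2 fold change (senescent over control, log2 of CPM + 0.5) of each tested gene of the class I presentation genes (labelled members) and of 8 further pathway lists, 1 row a list. Red points rose, blue points fell and open points were not called at a limma adjusted p under 0.05, with the median of all genes (-0.03) as a dotted line. Class I and class II rows lie mostly to its right and the trimming, loading and editing row mostly to its left.

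Over the 8 lists together, 71 of 100 genes were tested, of which 15 rose and 19 fell, beside 21.8% and 24.3% of all genes. Their median log2 fold change was -0.03, equal to that of all genes to 2 decimals. After division by library totals, 24 rose and 11 fell. Class II molecules, which present peptides from outside the cell and are typical of antigen-presenting cells, were listed for comparison. Of 4 tested, 3 rose and 0 fell. H2-DMa and H2-DMb1, the peptide editor of class II, rose by 1.50 and 1.15. H2-Eb1, a class II chain, rose by 1.10 from 1.14, 0.513 and 0.539 CPM to 1.95, 1.91 and 2.41 CPM. H2-Ab1, a further class II chain, named after its value was seen, was at 0.07 with overlapping groups. The leukocyte marker sum was also higher in the senescent libraries, and its part in these values was not tested.

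Levels between genes were set in order as mean CPM per kb of annotated exon. In control FAPs B2m led at 228, followed by H2-K1 at 19.0, H2-D1 at 17.7, Tapbp at 12.7, Psmb10 at 7.42, Tap2 at 4.77, Tap1 at 1.52, Psmb8 at 0.903, Psmb9 at 0.129 and Nlrc5 at 0.0637. The H2-K1 values overlapped those of H2-D1 and Tapbp, and the values of Psmb9 those of Nlrc5. In senescent FAPs B2m was at 383, H2-D1 at 36.3, H2-K1 at 19.9, Tapbp at 17.9, Tap2 at 10.4, Psmb10 at 9.64, Tap1 at 4.98, Psmb8 at 2.28, Psmb9 at 0.466 and Nlrc5 at 0.461. H2-D1 thus stood above H2-K1 in every senescent library, while the values of Tap2 overlapped those of Psmb10 and the values of Psmb9 those of Nlrc5. The exon length is the union over annotated transcripts, which differs from that of the transcript in the cell.

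The mean pattern of the 10 genes over the 6 libraries was compared with all other tested genes by the root-mean-square distance of centred log2(CPM + 0.5) values. The nearest were Dcaf4 (0.05 on the log2 scale), Zfp219, Abcd2, Laptm4b and Slc31a2 (0.06), with log2 fold changes of 0.98 to 1.07. Zfp219 went from a mean of 12.5 to 25.8 CPM and Laptm4b, a lysosomal membrane protein, from 22.1 to 44.6 CPM.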

How the data were processed

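The authors prepared stranded mRNA libraries (TruSeq) and deposited 1 signal value per gene and library, CPM of the effective library size, with edgeR (3.10, R 3.6.0) and mm10 named in the submitters' processing notes. The aligner, counter, annotation, filter and use of strand are not given in the sources used here. Whole reads were recovered for 100% of values (tolerance 1e-06), and the scaling factors were 0.917 to 0.940 in control and 1.07 to 1.09 in senescent libraries. Of 16895 rows, 1 names no gene (0.00409% to 0.00699% of reads) and was left out. Interval and p-value cover these libraries only.

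The test planned for CPM was used for this signal. A gene entered the test where 3 or more libraries reached 0.5 CPM, which left 14776 genes, all 10 class I genes among them. They were tested with limma 3.58.1 (trend, two-sided, R 4.3.3) on log2(CPM + 0.5), with Benjamini-Hochberg adjustment over all of them. A gene was called at an adjusted p under 0.05. edgeR 4.0.16 and DESeq2 1.42.0 on recovered reads were alternatives, beside pseudocounts of 0.1 and 1, no filter or 2 CPM, other scalings, array weights, no variance trend, a replicate block and leaving out each library. Ratios were tested by exact permutation over libraries. Whether equal replicate numbers mark paired libraries is not stated. Deviations from the group means correlated at 0.537, 0.308 and 0.207 over genes for equal numbers, and at -0.357 to 0.153 for unequal ones. The main fit and the permutations used no pairs. With replicate numbers as pairs, an exact sign-flip test gave p = 0.25 for each immunoproteasome ratio and for H2-K1 over H2-D1. This is the smallest p that 3 pairs can give. The fit was also run on simulated data in which few genes changed and replicate numbers were unrelated, a simpler setting than these data.

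The class I genes, the pathway and marker lists and the tests were chosen with earlier results of these data known. Named were the 10 genes, the 3 genes of each list with the smallest p, Psmb5, Psmb6 and Psmb7, the 5 genes nearest in pattern, the markers, Cdkn1a and Mki67. Counts include some genes that the rule names and that are not reported here. Promoter windows from RefSeq (GRCm38.p6) were given for 8 of the 10 genes. Positions are from GENCODE M21.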

Additional observations from a re-analysis of the deposited data

How the results depend on the processing

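The count of class I genes called higher was 9 under every scaling, pseudocount and tool tried and with the replicate block (limma, 9 higher and 0 lower), 8 at a filter of 2 CPM, where Psmb9 was not tested, and 7 to 9 when 1 library was left out. Division by library totals moved the pathway lists to 24 higher and 11 lower and all genes to 5056 higher and 1933 lower, so 72.3% of calls were higher in place of 47.3%. Leaving out 1 library gave 1706 to 3398 higher and 2333 to 3828 lower genes, with 1706 and 2333 without senescent replicate 2 and 1826 higher without senescent replicate 3. H2-K1 ran from -0.19 (without control replicate 2) to 0.49 (without control replicate 1). The log2 ratio of H2-K1 plus H2-D1 to B2m ran from -0.42 to 0.20, at 0.20 without control replicate 1 and 0.0053 without senescent replicate 3. The cause of these changes was not tested beyond the libraries left out. B2m and Psmb10 lost their calls in 2 and 3 of these fits. The replicate block changed the call of none of the 10 class I genes and gave 20 pathway genes lower in place of 19, with 3576 genes higher and 3947 lower over all. Over the alternatives for single class I genes, 173 values kept direction and call, 5 lost the call and 1 turned. With 3 libraries a group, an exact permutation test cannot reach 0.05. Nlrc5 and Psmb9 rest on 15 to 39 reads in each control library, which limits the precision of their fold changes.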
